A study of Homo sapiens with 6 samples.

Results

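Hyaluronan genes were followed through DU145 cells given CCS1477. The set held 8 genes, CEMIP, CEMIP2, HAS2, HAS3, HYAL1, HYAL2, HYAL3 and CD44, picked by symbol out of 60623 genes in the deposited tables. Of these 8, 7 were among the 14928 genes with enough reads to be tested, and HAS2 was not. CEMIP had been singled out for its difference between the same groups in earlier results of these data, so values of the 8 genes are given as a description and carry no test.

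DU145 is an established human prostate cancer cell line, labelled here as wild type and grown in RPMI-1640 with serum. The cells received either 1 µM CCS1477 (3 libraries) or the solvent DMSO (3 libraries) for 24 h, and poly-A RNA was sequenced. CCS1477, also called inobrodib, binds the bromodomains of the histone acetyltransferases p300 and CBP, and the question addressed was how transcription differs under the compound. Nothing in the labels says that the replicates came from separate cultures, so every p-value below covers the spread between these libraries alone.

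Hyaluronan is a long unbranched sugar polymer of the extracellular matrix. Enzymes of the HAS family build it at the plasma membrane from UDP-glucuronic acid and UDP-N-acetylglucosamine and push the growing chain out of the cell. CEMIP and the hyaluronidases cut it into shorter pieces that are taken up and finished in lysosomes, and CD44 is its main receptor on the cell surface. In prostate cancer, hyaluronan and the enzymes that make and cut it have been studied for their link to migration and invasion.

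Promoter sequences of CEMIP and HAS3 are printed because, of the members with over 10 counts in every library, these had the largest fold changes. RefSeq windows (GRCh38.p14) were found for 7 of the 8 genes, in 8 windows since HYAL3 has a pair of them. The windows shown are the 250 bases before a RefSeq transcription start, on the plus strand, at chr15:80779120-80779369 for CEMIP and chr16:69107290-69107539 for HAS3. The RefSeq starts, 80779370 for CEMIP and 69107540 for HAS3, are not the starts of the deposited coordinates given further on, which are 80779343 and 69105653. By the deposited coordinates, the CEMIP window therefore runs 27 bases into the gene and the whole HAS3 window lies inside it, although 0 of its bases are exonic in GENCODE 29. Capitals mark TATAAA in CEMIP and the palindrome CACGTG, which holds ACGTG on both strands, in HAS3.
CEMIP: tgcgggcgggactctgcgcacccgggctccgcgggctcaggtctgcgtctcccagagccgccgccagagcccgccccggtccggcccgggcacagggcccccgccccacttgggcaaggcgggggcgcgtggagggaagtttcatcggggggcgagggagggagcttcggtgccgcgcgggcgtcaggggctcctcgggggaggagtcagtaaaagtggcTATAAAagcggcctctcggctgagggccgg
HAS3: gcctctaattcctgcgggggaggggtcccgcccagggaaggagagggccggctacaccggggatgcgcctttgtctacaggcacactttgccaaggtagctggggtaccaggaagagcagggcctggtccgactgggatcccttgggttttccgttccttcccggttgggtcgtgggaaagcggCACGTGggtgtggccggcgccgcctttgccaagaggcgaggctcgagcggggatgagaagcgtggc
TATAAA began 30 bases before the RefSeq start of CEMIP, across the deposited start, and 10.7% of all 35116 promoter windows of this length held it on either strand. ACGTG, the core of the hypoxia response element, was present in 18.5% of windows, and HYAL3 and CD44 held it too. Of the other motifs searched on both strands, the AP-1 site TGANTCA was in 6.57% of windows and in 0 of the member windows. The TEAD motif GGAATG was in 11.9% of windows, among them HYAL2 and the second HYAL3 window. The GC box GGGCGG was in 42.6% of windows, CEMIP and HAS3 included. The CEMIP window was 74.4% G and C, above 88.4% of all windows, and the HAS3 window 66.0%, against a median of 58.0%. A match is a string of letters and says nothing of whether a factor binds there.

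CEMIP was almost gone from cells given CCS1477. Relative to DMSO, HAS3, HYAL1, HYAL2, HYAL3 and CD44 were lower as well, and CEMIP2 stood near its DMSO level. For 6 of the 7 tested members, CPM (counts scaled to library size) in all 3 CCS1477 libraries lay below all 3 DMSO libraries. The same held for 19.3% of tested genes. CEMIP, HYAL1 and HAS3 were lower by over 2-fold. Of all tested genes, 3.07% were lower by that much with an adjusted p under 0.05 (edgeR's quasi-likelihood test on all genes). The median log2 fold change of the 7 was -0.90, against -0.003 over all tested genes. Because the members were proposed from this contrast, nothing is read from these counts. HYAL1, moreover, had enough reads to be tested in its DMSO libraries alone, so its place among the 7 favours a fall.

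**Figure D1:**
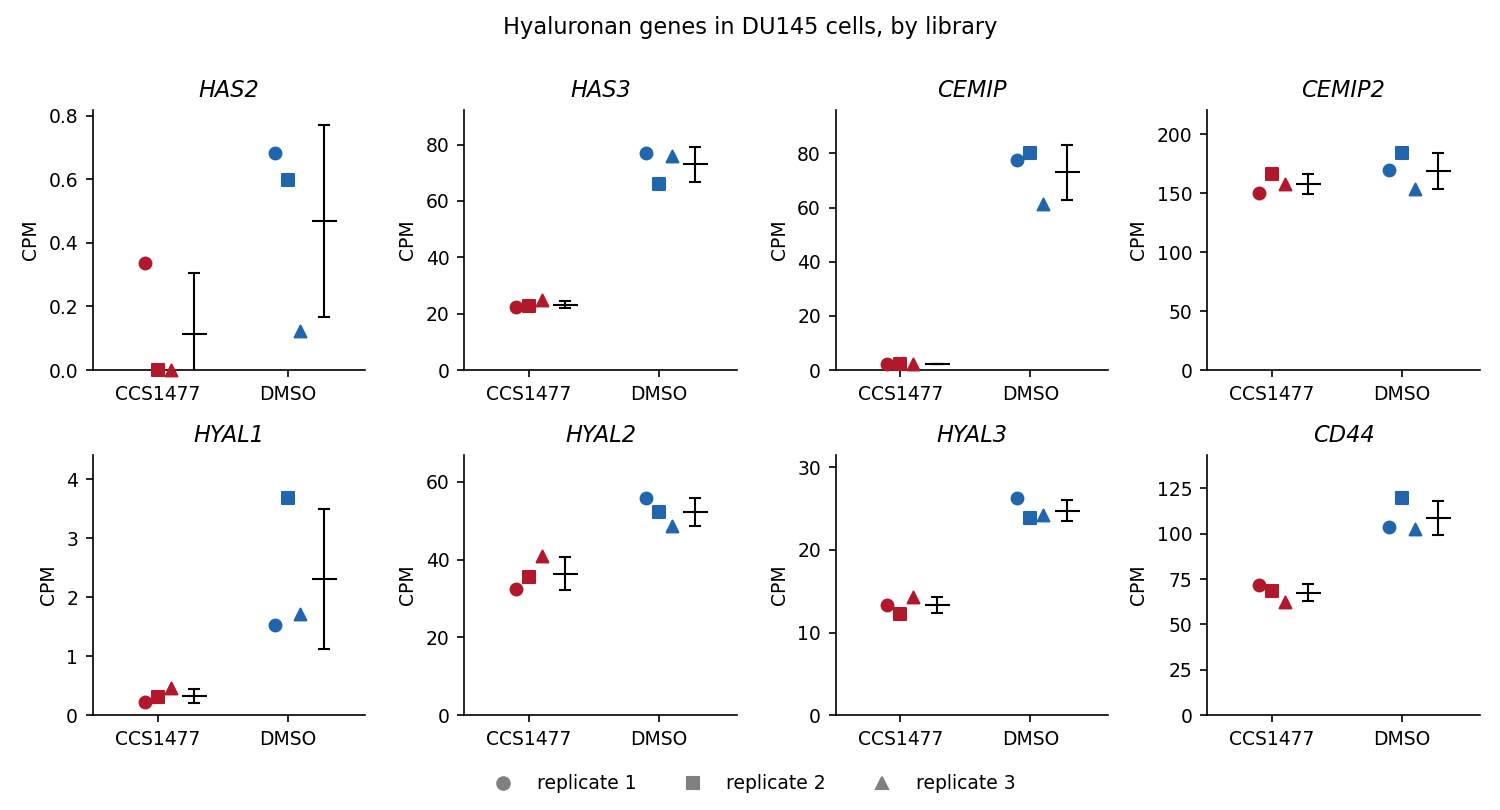
CPM of each hyaluronan gene in the 3 CCS1477 libraries (red) and the 3 DMSO libraries (blue); symbols are replicates, and the bar beside each group is its mean with SD. CEMIP lies at 2.13 to 2.40 CPM with CCS1477 and 61.3 to 80.1 CPM with DMSO, while the groups of CEMIP2 overlap; each panel has its own linear axis.

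**Figure D2:**
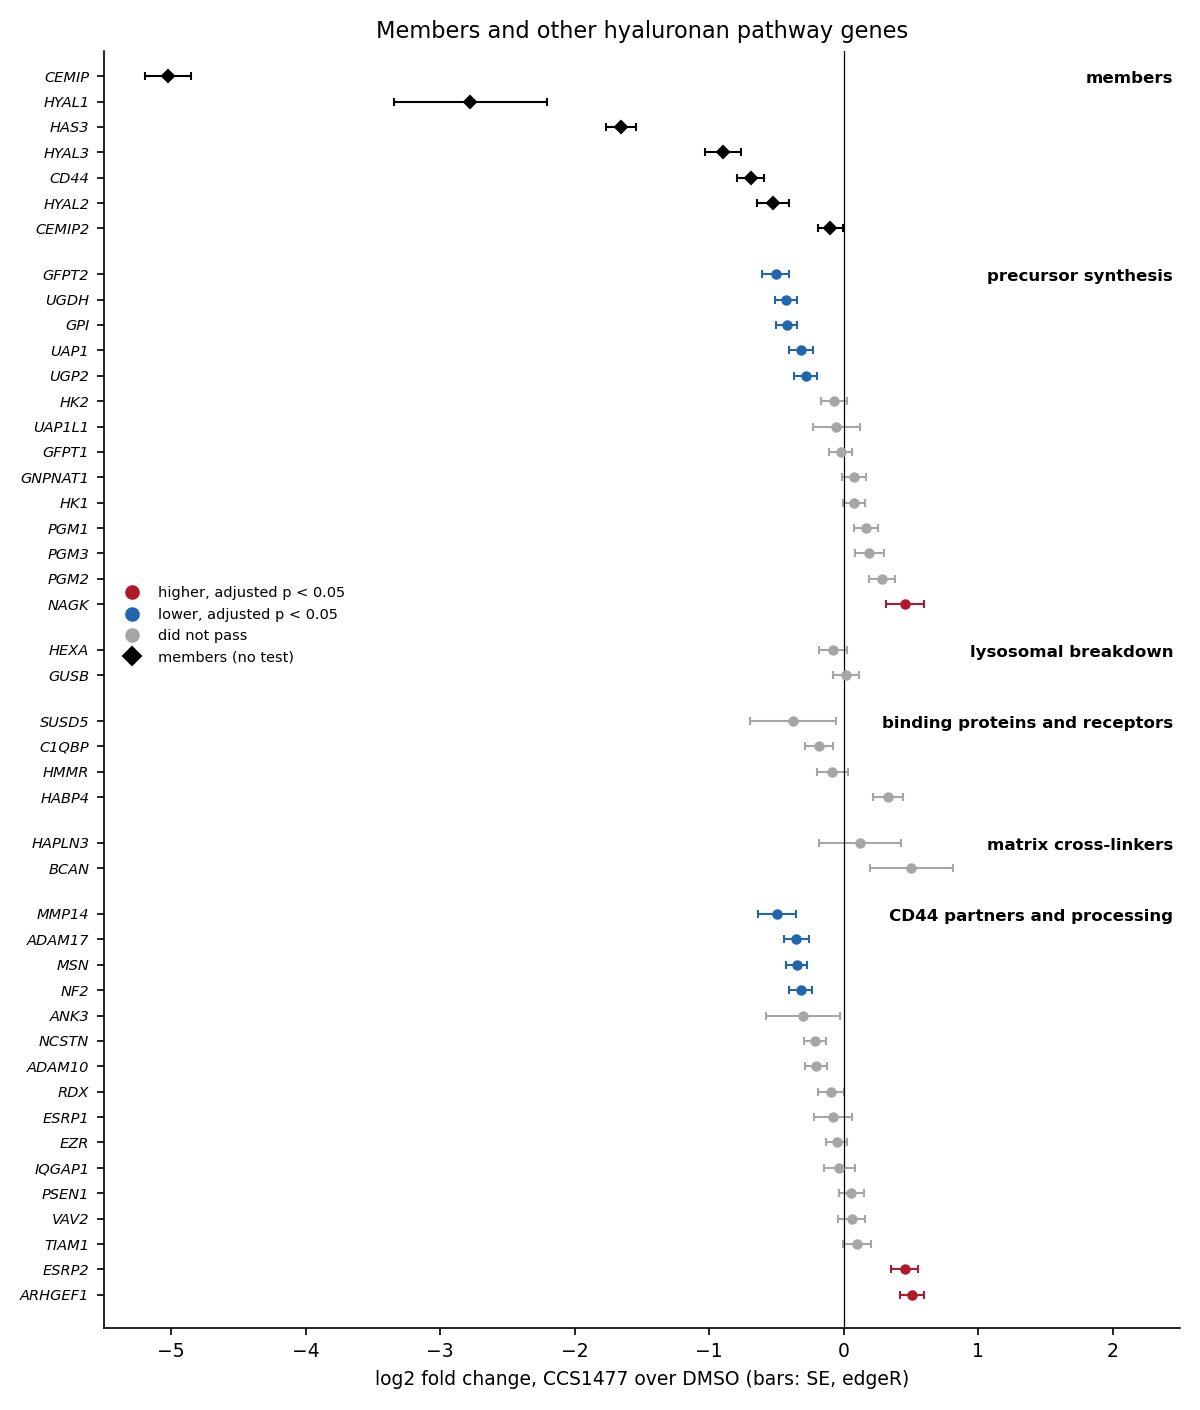
Log2 fold change, CCS1477 over DMSO, with SE as bars, of the 7 tested members (black diamonds, no test) and tested genes of the pathway lists (blue lower, red higher, grey did not pass). CEMIP stands at -5.02, HYAL1 at -2.77 and HAS3 at -1.65, and CEMIP2 at -0.10 is the member nearest to 0; the called pathway genes lie between -0.51 and 0.51.

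The synthases came first in the pathway. HAS3, which is known to make shorter chains than the other HAS enzymes, is at chromosome 16, 69105653 to 69118719, on the plus strand. HAS3 had 22.3, 22.6 and 24.7 CPM in the CCS1477 libraries (199, 217 and 216 estimated counts), against 77.0, 65.8 and 76.0 CPM in the DMSO libraries (903, 770 and 619). The groups were far apart relative to their spread, with means of 23.2 ± 1.29 CPM and 72.95 ± 6.17 CPM (SD, n = 3 each). The log2 fold change was -1.65 ± 0.11 (SE), so that 31.8% of the DMSO level remained.

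HAS2, the main synthase of many mesenchymal cells, is at chromosome 8, 121612116 to 121641440, on the minus strand. It was barely detected, with 3, 0 and 0 counts in CCS1477 libraries and 8, 7 and 1 in DMSO libraries. A count of 3 corresponds to between 0.256 and 0.368 CPM here, and all 3 CCS1477 libraries were at or under it, as was DMSO 3. The summed counts, 3 against 16, give a ratio of 0.217 with an exact 95% interval from 0.0405 to 0.758, which covers counting error only. In TPM, which is per transcript length, the synthases summed to 15.2 ± 1.45 with CCS1477 and 38.6 ± 4.85 with DMSO, nearly all of it HAS3.

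CEMIP is also known as KIAA1199 or HYBID. It binds hyaluronan and is needed for its depolymerisation in fibroblasts, and it lies at chromosome 15, 80779343 to 80951776, on the plus strand. The CCS1477 libraries held 19, 21 and 21 estimated counts of CEMIP, or 2.13, 2.19 and 2.40 CPM. The DMSO libraries held 911, 937 and 499 counts, or 77.7, 80.1 and 61.3 CPM. All 3 CCS1477 libraries sat within a narrow band above the floor of 3 counts, and DMSO 3 was the lowest of its group. The means were 2.24 ± 0.142 CPM and 73.0 ± 10.3 CPM (SD, n = 3 each), with a log2 fold change of -5.02 ± 0.17 (SE). This is a 32.5-fold lower level, with 3.08% remaining. In bulk RNA such as this, fewer cells that express CEMIP and less CEMIP RNA in each cell cannot be told apart.

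The TPM columns gave the same picture for CEMIP. It had 0.42, 0.42 and 0.45 TPM with CCS1477 and 15.27, 16.32 and 15.26 TPM with DMSO. In the DMSO libraries it ranked in the middle of the expressed genes, with 49.4% of tested genes below it in mean TPM, and in the CCS1477 libraries 0.958% were below it.

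CEMIP2, formerly TMEM2, is a transmembrane relative of CEMIP that was described in mice as a cell surface hyaluronidase; it is at chromosome 9, 71683366 to 71816690, on the minus strand. Its libraries read 149.8, 166.6 and 158.0 CPM with CCS1477, against 169.8, 184.0 and 153.6 CPM with DMSO. The groups overlapped, and the log2 fold change of -0.10 ± 0.09 (SE) has a range of -0.28 to 0.09 at 2 SE to each side. In mean TPM the values were 45.1 ± 3.16 with CCS1477 and 45.6 ± 11.7 with DMSO (SD, n = 3 each).

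The paralogs thus stood apart in this contrast. Per library, the TPM of CEMIP2 divided by that of CEMIP was 105.2 ± 9.80 with CCS1477 and 2.91 ± 0.658 with DMSO (SD, n = 3 each).

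HYAL1, HYAL2 and HYAL3 sit side by side on chromosome 3, all on the minus strand, and encode hyaluronidases of one family. HYAL1 (50299890 to 50312381) is the lysosomal and serum enzyme. It had 2, 3 and 4 counts in CCS1477 libraries and 18, 43 and 14 counts in DMSO libraries, that is 0.331 ± 0.117 CPM with CCS1477 and 2.31 ± 1.19 CPM with DMSO (SD, n = 3 each). DMSO 2 was the high library of its group. CCS1477 1 and CCS1477 2 were at or under the floor of 3 counts, so the fitted log2 fold change of -2.77 ± 0.57 (SE) depends on how low counts are treated. The summed counts of HYAL1, 9 against 75, give a ratio of 0.139 with an exact 95% interval of 0.0612 to 0.278 for counting error.

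HYAL2 (50317790 to 50322782) encodes an enzyme anchored to the cell surface by a lipid tail, which cuts long hyaluronan to intermediate fragments. It had 32.5, 35.5 and 41.0 CPM in CCS1477 libraries, against 55.8, 52.3 and 48.5 CPM in DMSO libraries. The groups did not overlap, and the log2 fold change was -0.52 ± 0.12 (SE), with 69.6% remaining.

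HYAL3 (50292831 to 50299405), whose own enzyme activity is less well established, had 13.35, 12.29 and 14.28 CPM with CCS1477 and 26.26, 23.86 and 24.19 CPM with DMSO. Its log2 fold change was -0.90 ± 0.13 (SE), with 53.7% remaining. The TPM values of HYAL3 did overlap, at 14.13, 12.44 and 21.74 TPM with CCS1477 and 24.34, 29.48 and 20.35 TPM with DMSO. HYAL1, HYAL2 and HYAL3 summed to 50.0 ± 5.10 CPM with CCS1477 and 79.3 ± 4.60 CPM with DMSO.

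Neighbouring transcripts share sequence with these genes, and whether the counting used strand is not given in the sources used here. In GENCODE 29, TUSC2 shares 509 exonic bases with HYAL2 (11.2% of the exonic bases of HYAL2) and NAA80 shares 248 with HYAL3 (12.2%), both on the same strand. Their log2 fold changes, 0.12 for TUSC2 and -0.06 for NAA80, were near 0. IFRD2, which shares 43 with HYAL3 (2.12%) on that strand, fell, at -0.66 (edgeR adjusted p = 0.000448). On the opposite strand, CHTF8 shares 365 exonic bases with HAS3 (6.90%) and MESD shares 224 with CEMIP (2.94%), with log2 fold changes of 0.04 and 0.04. These overlapping genes were looked up after the values were seen, and how reads in the shared bases were divided was not tested.

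CD44, the hyaluronan receptor, is at chromosome 11, 35138870 to 35232402, on the plus strand. The CCS1477 libraries had 71.7, 68.3 and 62.3 CPM, against 103.9, 119.6 and 102.6 CPM in the DMSO libraries. The ranges were separate, and the log2 fold change was -0.69 ± 0.10 (SE), with 62.0% remaining. CD44 has 26 annotated coding transcripts in GENCODE 29, from 352 to 5732 bases, and the gene counts do not divide them.

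Ordered by mean TPM, the members stood in the same order in both groups, except that HYAL3 and HAS3 changed places. With CCS1477 the order was CD44, CEMIP2, HYAL2, HYAL3, HAS3, CEMIP, HYAL1 and HAS2. CD44 and CEMIP2 overlapped there, as did HYAL3 and HAS3, and every other pair of neighbours in the order was separate. With DMSO the order was CD44, CEMIP2, HYAL2, HAS3, HYAL3, CEMIP, HYAL1 and HAS2. CEMIP2 overlapped HYAL2 in the DMSO libraries, and HYAL2 overlapped HAS3, while the remaining neighbours were separate.

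The makeup of the degrading side differed between the groups. CEMIP, CEMIP2 and HYAL1, HYAL2 and HYAL3 summed to 93.5 ± 4.85 TPM with CCS1477 and 132.1 ± 23.4 TPM with DMSO (SD, n = 3 each). CEMIP made up 0.460% ± 0.0113 of that sum with CCS1477 and 12.1% ± 2.05 with DMSO. CEMIP2 made up 48.4% ± 3.99 with CCS1477 and 34.2% ± 3.14 with DMSO. HYAL2 held 33.9% ± 2.73 with CCS1477 and 33.9% ± 3.59 with DMSO, and HYAL3 held 17.1% ± 4.36 with CCS1477 and 18.7% ± 1.15 with DMSO. A share of RNA is not a share of enzyme activity.

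**Figure D3:**
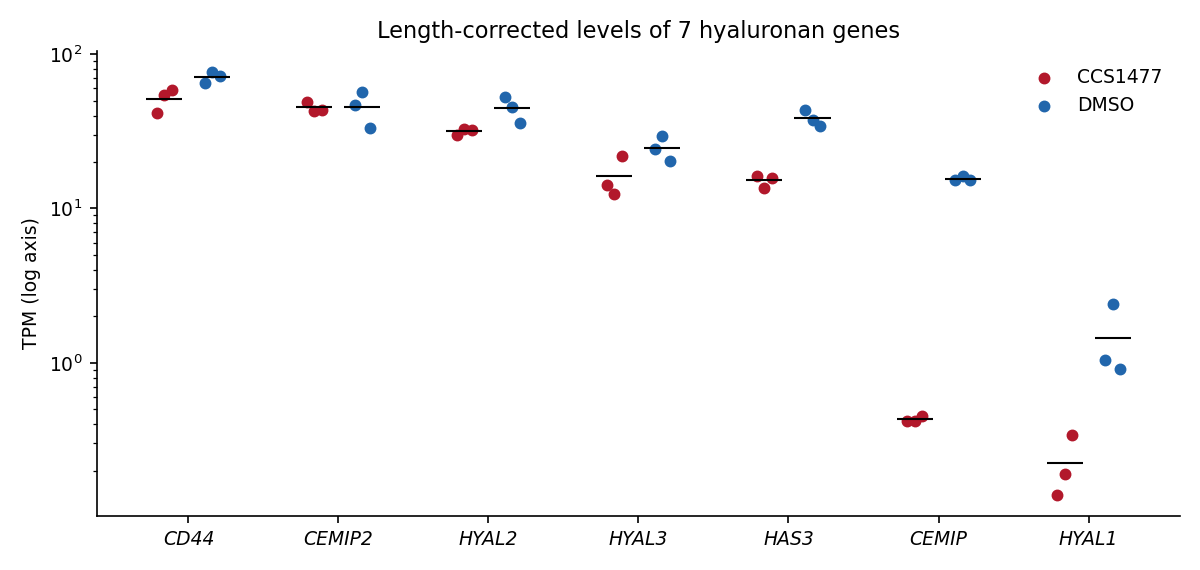
TPM per library on a log axis for the 7 tested members, CCS1477 (red) left of DMSO (blue) for each gene, with horizontal lines at the group means; HAS2, with libraries at 0 TPM, is not drawn. CEMIP lies at 0.42 to 0.45 TPM with CCS1477 and 15.26 to 16.32 TPM with DMSO. By group mean, CD44, CEMIP2 and HYAL2 are the 3 highest members in both groups. In DMSO 3, HAS3 (34.36 TPM) lies above CEMIP2 (33.4 TPM).

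Dividing the estimated count of a gene by its TPM, scaled so that the median tested gene of a library is 1, gives a value in proportion to the transcript length that the quantification assumed for the gene in that library. This quantity was not used to choose the members. HAS3 stood at 0.916, 1.09 and 1.03 in CCS1477 libraries and 1.15, 1.17 and 1.28 in DMSO libraries, shorter in every CCS1477 library, as 8.53% of genes with a value were. CEMIP stood at 3.39, 3.43 and 3.47 with CCS1477 and 3.32, 3.25 and 2.33 with DMSO, longer in every CCS1477 library, as were 4.25% of genes. DMSO 3 was far from the other 2 DMSO libraries in CEMIP. For CD44, the values were 1.15, 0.826 and 0.694 with CCS1477 and 1.04, 1.03 and 0.825 with DMSO, so libraries within a group differed as much as the groups did. CEMIP2, HYAL1, HYAL2 and HYAL3 overlapped as well. With 3 against 3 libraries an exact permutation test cannot go below 0.10, and none was run on these values.

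**Figure D4:**
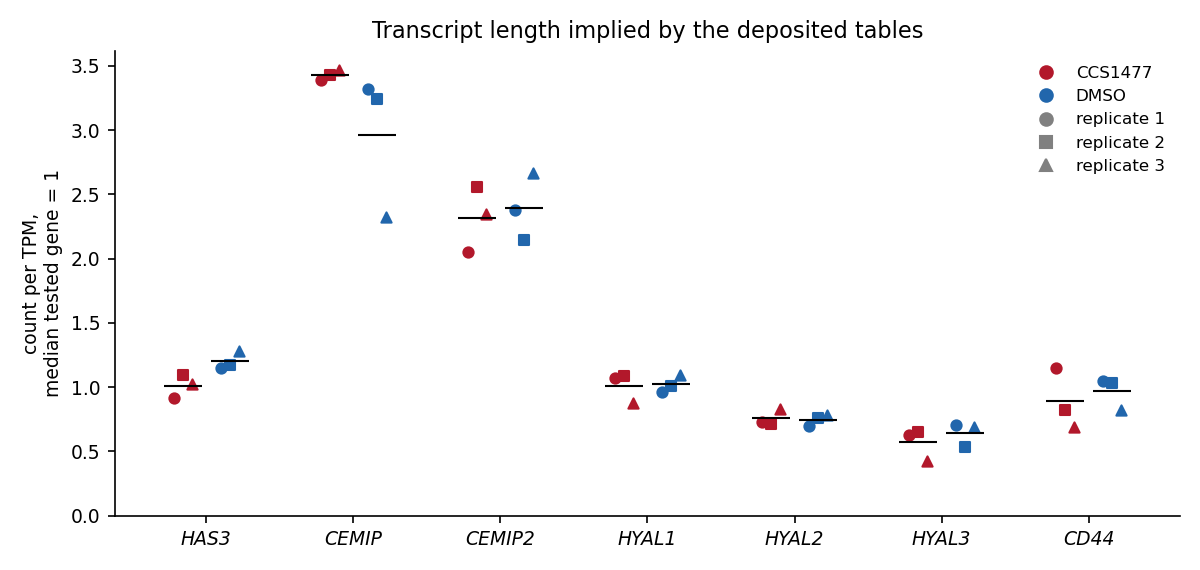
Implied transcript length (estimated count over TPM, median tested gene of each library set to 1) for the tested members, CCS1477 libraries (red) left of DMSO libraries (blue). HAS3 is shorter and CEMIP longer in all 3 CCS1477 libraries, by little for CEMIP except against DMSO 3, and CD44 and HYAL3 spread widely within groups.

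Among the other genes of the pathway, those past the test had log2 fold changes between -0.51 and 0.51. In the precursor list, 5 of 14 tested genes fell, 1 rose and 8 did not pass the test. That list holds enzymes that turn glucose into the 2 sugar nucleotides, and also the salvage kinase NAGK, which was the gene that rose. Over all 6 lists there were 68 genes, of which 39 were tested, with 9 lower (23.1%) and 3 higher (7.69%). All tested genes had 10.7% lower and 7.23% higher, and the median log2 fold change of the 39 was -0.07. The lists were written with earlier results of these data known, so nothing is read from these shares. These calls are from the edgeR quasi-likelihood fit, with Benjamini-Hochberg adjusted p over all tested genes.

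Leaving out CCS1477 1 turned the 9 lower genes into 5, with 3 without CCS1477 2, 4 without CCS1477 3, 4 without DMSO 1 and 5 with a replicate block. With limma on either TPM scale (log2 of TPM plus 1 or plus 0.1) 0 were lower, and 7 at an unadjusted p under 0.05. Of the 3 higher genes, 1 kept its call on those scales, ARHGEF1.

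Within precursor synthesis, GPI, which interconverts glucose and fructose phosphates, had 650.5 ± 15.3 CPM with CCS1477 and 872.0 ± 34.4 CPM with DMSO. Its log2 fold change was -0.42 ± 0.08 (SE, adjusted p = 0.00304, edgeR quasi-likelihood test), and -0.17 on both TPM scales, where its groups overlapped. UGDH, the enzyme that makes UDP-glucuronic acid, fell to 244.4 ± 12.2 CPM with CCS1477, against 329.2 ± 4.79 CPM with DMSO, a log2 fold change of -0.43 ± 0.08 (edgeR adjusted p = 0.00371). GFPT2, one of the paired enzymes of the first hexosamine step, fell to 44.9 ± 1.79 CPM, against 63.8 ± 3.60 CPM with DMSO (log2 fold change -0.51, edgeR adjusted p = 0.00464). The SD values are over 3 libraries each, and all of these were lower in 3 of 3 CCS1477 libraries.

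UAP1, which completes UDP-N-acetylglucosamine, had 144.7 ± 9.56 CPM with CCS1477 and 180.2 ± 12.8 CPM with DMSO. Its log2 fold change of -0.32 (edgeR adjusted p = 0.0323) lost the call with library size alone, with a replicate block and without CCS1477 1, CCS1477 2, CCS1477 3 or DMSO 1. The fifth lower gene, UGP2, which makes UDP-glucose, stood at -0.28 (edgeR adjusted p = 0.0427), is named after its values were seen, and kept its call in 3 of 15 alternatives. NAGK, the salvage kinase for N-acetylglucosamine, rose at a log2 fold change of 0.46 ± 0.14 (edgeR adjusted p = 0.0391), a call lost without CCS1477 2, CCS1477 3, DMSO 1 or DMSO 2. On the TPM scales NAGK stood at 0.03.

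Of the lysosomal enzymes that finish hyaluronan fragments, HEXA had a log2 fold change of -0.08 and GUSB of 0.02, and neither passed the test. Their signs turned when 1 library was left out, HEXA without CCS1477 1 and GUSB without CCS1477 3 or DMSO 2. Of 11 other binding proteins and receptors, 4 were tested and 0 passed with edgeR and TMM or with DESeq2, with 1, higher, at an unadjusted p under 0.05. That gene, HABP4, stood at 0.33 (edgeR adjusted p = 0.0665). It passed with library size alone at 0.38 (edgeR adjusted p = 0.0380), without CCS1477 1 at 0.41 (edgeR adjusted p = 0.0496) and without DMSO 3 at 0.38 (edgeR adjusted p = 0.0359). C1QBP stood at -0.18, SUSD5 at -0.38 (-0.54 to -0.12 when 1 library was left out) and HMMR, the receptor also called RHAMM, at -0.08. Of 17 cross-linkers that tie hyaluronan to other matrix molecules, 2 were tested, BCAN at 0.50 and HAPLN3 at 0.13, and 0 passed with edgeR or DESeq2, also at an unadjusted p under 0.05. With limma on either TPM scale 0 of the 2 passed, and 1 was higher at an unadjusted p under 0.05. Leaving out 1 library put BCAN at 0.26 (without DMSO 1) to 0.83 (without DMSO 2) and HAPLN3 at -0.06 (without CCS1477 3) to 0.33 (without CCS1477 1). Of 4 remaining family genes, 0 were tested, and HYAL4 and SPAM1 had no reads in any library. HAS1 had 3 counts in DMSO 3 and none elsewhere.

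Partners and processors of CD44 numbered 19, of which 16 were tested, 4 fell (25.0%) and 2 rose (12.5%). Over all tested genes, 10.7% were lower and 7.23% higher. MSN, the moesin linker between CD44 and actin, had 371.2 ± 8.94 CPM with CCS1477 and 472.9 ± 18.2 CPM with DMSO (log2 fold change -0.35, edgeR adjusted p = 0.00985). ADAM17, a sheddase that can cut CD44, had 84.0 ± 4.76 CPM with CCS1477 and 107.3 ± 8.02 CPM with DMSO (log2 fold change -0.35, edgeR adjusted p = 0.0226). The other lower genes, named after their values were seen, were NF2, the merlin relative of moesin, at -0.32 and the membrane protease MMP14 at -0.49, which kept their calls in 8 and 10 of 15 alternatives. The MSN call was lost without CCS1477 2, CCS1477 3 or DMSO 1, and that of ADAM17, which stood at -0.16 on both TPM scales, without CCS1477 2, CCS1477 3 or DMSO 2 and with a replicate block.

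ARHGEF1, an exchange factor for RhoA, rose to 200.2 ± 16.8 CPM with CCS1477, against 140.9 ± 6.73 CPM with DMSO (log2 fold change 0.51, edgeR adjusted p = 0.0029). ESRP2, a splicing regulator known to act on CD44 exons, rose to 64.6 ± 2.88 CPM with CCS1477, against 47.2 ± 2.67 CPM with DMSO (log2 fold change 0.45, edgeR adjusted p = 0.00828). The ESRP2 call was lost on both TPM scales. The paralog ESRP1 stood at -0.08 and did not pass, as did the moesin relatives EZR at -0.05 and RDX at -0.10. These 3 are named after their values were seen.

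Position was not used to choose the members, so genes within 500 kb of them were tested in the same fit. Of 55 tested neighbours, 9 fell (16.4%) and 2 rose (3.64%), where all tested genes had 10.7% lower and 7.23% higher. On both TPM scales 4 were lower and 0 higher (4 higher at an unadjusted p under 0.05), and with edgeR 0 were higher without CCS1477 2, CCS1477 3 or DMSO 1. Around CEMIP, 2 of 7 tested neighbours fell. ABHD17C, a depalmitoylating enzyme whose end lies 23.7 kb before CEMIP on the same strand, had 51.3, 47.5 and 57.7 CPM with CCS1477 and 114.0, 109.8 and 82.9 CPM with DMSO. Its log2 fold change was -0.97 ± 0.13 (SE, adjusted p = 0.000419, edgeR quasi-likelihood test), and DMSO 3 was the lowest DMSO library for it as for CEMIP. The same order held on other chromosomes, for CDH1 (chromosome 16) and TNC (chromosome 9), though not for TGM2 (chromosome 20). ARNT2, a bHLH-PAS transcription factor 181 kb from CEMIP, stood at -0.50 ± 0.12 (edgeR adjusted p = 0.0148), a call lost without CCS1477 1 or CCS1477 2 and on the TPM scales, at -0.15 and -0.18. The remaining 5, MESD among them, did not pass.

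Around HAS3, 3 of 16 tested neighbours fell and 1 rose. The tested genes nearest to HAS3 did not pass in this fit. CHTF8 and DERPC, which overlap it, stood at 0.04 and -0.14. UTP4 (12.6 kb away) stood at -0.23 and TANGO6 (20.5 kb away) at -0.13. These nearest genes are named after their values were seen. CDH3, which encodes P-cadherin, had 72.3, 71.9 and 84.2 CPM with CCS1477 and 202.9, 199.9 and 195.2 CPM with DMSO. Its log2 fold change was -1.39 ± 0.09 (SE, edgeR adjusted p = 3.29e-06). CDH1, which encodes E-cadherin, had 86.8, 85.8 and 82.4 CPM with CCS1477 and 203.6, 203.4 and 165.8 CPM with DMSO, a log2 fold change of -1.17 ± 0.10 (edgeR adjusted p = 1.64e-05). The cadherin genes lie 383 kb (CDH3) and 270 kb (CDH1) from HAS3, and for both every CCS1477 library was lower than every DMSO library. CYB5B was lower at -0.36 (edgeR adjusted p = 0.00937) and VPS4A higher at 0.36 (edgeR adjusted p = 0.0295). Those 2 calls were lost without CCS1477 2 or CCS1477 3, on both TPM scales and, for VPS4A, without DMSO 1.

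Around the HYAL1, HYAL2 and HYAL3 cluster, 3 of 26 tested neighbours fell and 1 rose. IFRD2, the overlapping neighbour of HYAL3, had 64.2 ± 2.64 CPM with CCS1477 and 101.3 ± 3.50 CPM with DMSO (SD over 3 libraries each). Its log2 fold change was -0.66 ± 0.09 (SE, edgeR adjusted p = 0.000448). MAPKAPK3 stood at -0.49 (edgeR adjusted p = 0.00628) and the semaphorin SEMA3F at -0.76 (edgeR adjusted p = 0.0184), and the SEMA3F call was lost without CCS1477 1 or CCS1477 3. Both were lost on the TPM scales, where SEMA3F stood at -0.42 and -0.50. TRAIP stood at 0.50 (edgeR adjusted p = 0.0415), and its call ended with DESeq2, with no filter, with a replicate block, on both TPM scales and without any 1 library. Near CD44, 1 of 4 tested neighbours fell, FJX1 at -0.67 ± 0.14 (edgeR adjusted p = 0.00651), a call lost on both TPM scales. Near CEMIP2, 0 of 2 passed with edgeR or DESeq2, also at an unadjusted p under 0.05, and HAS2 had no tested neighbour.

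**Figure D5:**
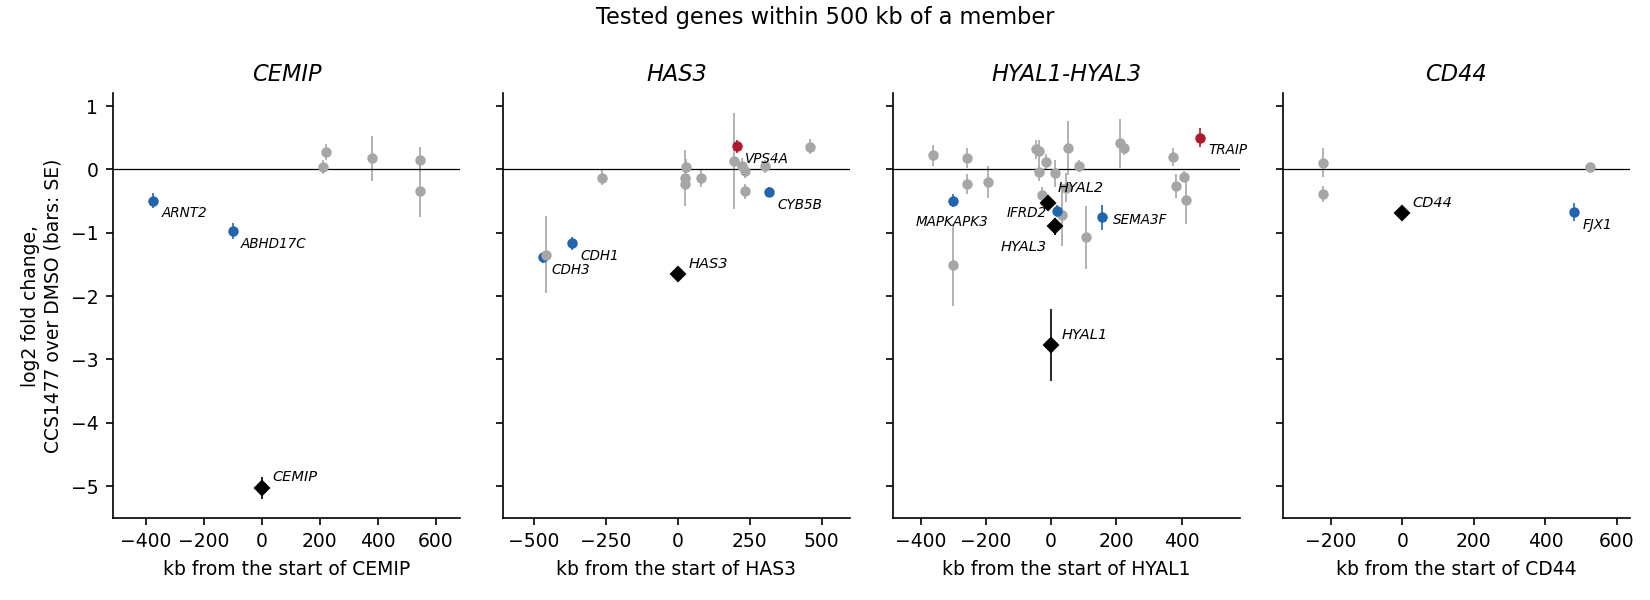
Log2 fold change, CCS1477 over DMSO, of tested genes within 500 kb of CEMIP, HAS3, the HYAL cluster and CD44, against distance from the start of the member in kb; black diamonds are members, blue is lower and red higher past the threshold, grey did not pass, and bars are SE. CEMIP at -5.02 lies far below ABHD17C at -0.97 and ARNT2 at -0.50, and HAS3 at -1.65 is closer in fold change to CDH3 at -1.39 and CDH1 at -1.17. By position, the tested genes nearest to HAS3 did not pass, among them CHTF8 at 0.04 and UTP4 at -0.23.

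Genes whose pattern over the 6 libraries was most like that of CEMIP were ranked by Pearson's r of log2 CPM among 11501 tested genes with a mean of at least 5 CPM. The highest were TNC (r = 0.9993), C3 (0.9990), TGM2 (0.9987), PRSS23 (0.9987), FAM83A (0.9986) and BMPER (0.9986). The libraries form 2 groups, so r here mostly records the difference between groups, and 87 genes passed 0.99. TNC, the matrix protein tenascin C, had 31.1 ± 0.837 CPM with CCS1477 and 166.4 ± 11.1 CPM with DMSO. TGM2, a transglutaminase that cross-links matrix proteins, had 225.3 ± 4.70 CPM with CCS1477 and 1024 ± 30.1 CPM with DMSO (SD, n = 3 each). Their log2 fold changes of -2.42 and -2.18 were smaller in size than that of CEMIP. Among the members, r with CEMIP was 0.992 for HAS3, 0.988 for HYAL3, 0.967 for CD44, 0.945 for HYAL1, 0.932 for HYAL2 and 0.512 for CEMIP2.

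Library totals were 8691382 to 9412867 estimated counts with CCS1477 and 8286880 to 11956734 with DMSO. The first principal component (48.5% of variance) separated the groups. As to what the cells were, the luminal prostate markers KLK3, KLK2 and HOXB13 had 0 counts in every library. Epithelial markers were abundant, at a sum of 2064 to 2233 CPM with CCS1477 and 2353 to 2598 CPM with DMSO, with 3 of 6 lower (CDH1, KRT19 and CLDN4) and none at 0. Fibroblast markers summed to 14.6 to 17.4 CPM with CCS1477 and 14.9 to 22.1 CPM with DMSO, nearly all COL1A1, with COL3A1, DCN and LUM at 0. Leukocyte markers summed to 28.1 to 31.9 CPM with CCS1477 and 41.5 to 50.6 CPM with DMSO, nearly all CD68, with PTPRC and CD3E at 0. The part of these marker differences in the results above was not tested. The endothelial list reached at most 0.343 CPM with CCS1477 and 0.368 CPM with DMSO, with PECAM1 at 0.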

How the data were processed

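RNA from 3 CCS1477 and 3 DMSO libraries was measured, with groups and replicate numbers taken from the sample titles. The authors deposited a table of estimated counts per gene, not normalized, and a table of TPM (abundance per transcript length, with the same sum in each library), each with 60623 genes. Reads had been trimmed with Trimmomatic 0.39, per the submitters' processing notes. Which aligner, quantification tool, genome build or strand setting was used is not given in the sources used here. Coordinates of members are printed as the deposited table gives them, and for CEMIP, CEMIP2 and CD44 both ends equal those of GENCODE 29 (GRCh38). Estimated counts were rounded to whole numbers and filtered with filterByExpr (minimum count 10, minimum total 15), which left 14928 genes. They were tested with edgeR 4.0.16 (TMM factors, quasi-likelihood test, Benjamini-Hochberg adjustment over all genes, threshold 0.05) in R 4.3.3. CPM uses the TMM effective library size. Log2 fold changes and their SE come from this fit.

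The alternatives were DESeq2 1.42.0, limma-voom and limma 3.58.1 on log2(TPM + 1) and log2(TPM + 0.1), other scalings and filters, a replicate block, and leaving out each library. The code was tested on simulated data. Figures used matplotlib 3.10.9. Library totals of 8286880 to 11956734 put a floor of 3 counts at 0.256 to 0.368 CPM, and intervals and floors cover counting error only.

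The members and lists were chosen with earlier results of these data known. The genes named are the 8 members, in each pathway list the 4 lowest by adjusted p and at most 2 more called in the opposite direction, up to 4 neighbours past the threshold per locus within 500 kb, and the 6 genes most correlated with CEMIP. Any gene outside it is said in the text to have been picked with its values in view. Some listed genes are not reported here. Per-sample columns outside the 6 libraries numbered 0.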

Additional observations from a re-analysis of the deposited data

How the results depend on the processing

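The log2 fold changes of CEMIP, HAS3, HYAL1, HYAL2, HYAL3 and CD44 stayed below 0 in all 15 alternatives. CEMIP2 stood at -0.17 to 0.02. On log2(TPM + 1), CEMIP stood at -3.54, HAS3 at -1.28, HYAL1 at -0.96, HYAL2 at -0.47, HYAL3 at -0.61 and CD44 at -0.47. That scale gave 293 genes higher and 427 lower, pathway genes at 1 higher and 0 lower, and neighbours at 0 higher and 4 lower. On log2(TPM + 0.1), CEMIP stood at -4.89, HAS3 at -1.33, HYAL1 at -2.18, HYAL2 at -0.48, HYAL3 at -0.64 and CD44 at -0.48, with 280 genes higher and 410 lower, pathway genes at 1 higher and 0 lower, and neighbours at 0 higher and 4 lower. HMMR and HEXA, which did not pass in any of these fits, turned sign on both scales, at 0.064 and 0.10 on log2(TPM + 1) and 0.065 and 0.11 on log2(TPM + 0.1). The cause was not tested. A pseudocount pulls low genes such as CEMIP towards 0 by construction. HAS3, at a mean of 15.2 TPM with CCS1477 and 38.4 TPM with DMSO, is not such a gene, and edgeR put it at -1.65. Its mean implied length with CCS1477 over that with DMSO was 0.843. That ratio was 0.887 for HYAL3, 0.920 for CD44, 1.02 for HYAL2 and 1.16 for CEMIP.

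Scaling by library size alone gave 1456 genes higher and 1361 lower, against 1079 higher and 1597 lower with TMM, with 5 pathway genes and 4 neighbours higher. Deviations from the group means of same-numbered libraries gave r = -0.087, -0.196 and -0.007. With 3 libraries per group, these values cannot show whether same-numbered libraries were prepared together. A replicate block gave 799 genes higher and 1306 lower, 5 pathway genes lower and 1 neighbour higher.

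Leaving out 1 library gave 487 to 1311 genes higher and 925 to 1772 lower; the counts were 489 and 925 without CCS1477 2, 487 and 1042 without CCS1477 3, and 555 and 973 without DMSO 1. Pathway genes were then 2 to 4 higher and 3 to 10 lower, and neighbours 0 to 3 higher and 7 to 10 lower. CEMIP ranged over -5.14 to -4.94, HAS3 over -1.71 to -1.60, HYAL1 over -3.05 to -2.24, HYAL2 over -0.62 to -0.44, HYAL3 over -0.95 to -0.84 and CD44 over -0.73 to -0.60. The neighbour counts under these settings were added after the data were seen. Depth limits HAS2 and HYAL1, whose CCS1477 libraries hold 0 to 4 counts.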
